A study of Mus musculus with 6 samples.

Results

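The Rab GTPases are small membrane switches that direct vesicles between the compartments of a cell. A Rab is loaded with GTP by an exchange factor, binds effectors such as tethers and motors on its own membrane, is turned off by a GTPase-activating protein, and is pulled back into the cytosol by a dissociation inhibitor. Different Rabs mark different compartments, and in microglia, the resident macrophages of the brain, they serve phagosome maturation, delivery to lysosomes, receptor recycling and the release of granules and cytokines. The genes described here are those whose symbol is Rab followed by a number and, where present, a letter and a further digit. Of 20129 genes in the table, 56 had such a symbol, and 43 of them were measured at 1 CPM or more in at least 3 of the 6 libraries (CPM, the count of a gene scaled to a library of 1000000 reads). Expression in both groups entered that choice, and no gene passed it through 1 group only.

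The study compared microglia of 5xFAD mice that lack interleukin-3 (Il3-/-5xFAD, replicates 1, 2 and 3) with microglia of 5xFAD mice (5xFAD, replicates 4, 5 and 6), to ask how this cytokine acts on microglia in a model of Alzheimer's disease. All mice were on the C57BL6/J strain, were 5 months old and carried the 5xFAD transgenes, human genes with familial Alzheimer mutations under the Thy1 promoter, so no library came from mice without amyloid. Each library was RNA of live CD45+ CD11b+ cells sorted from the brains of 4 mice, 2 male and 2 female. The libraries held 27970850 to 37605490 reads. Il3 had no read in any Il3-/-5xFAD library, against 54, 61 and 29 reads in the 5xFAD libraries; a count of 0 allowed at most 0.101, 0.107 and 0.0909 CPM in Il3-/-5xFAD replicates 1, 2 and 3, for counting error only. The 10 microglial markers checked, among them P2ry12, Tmem119 and Cx3cr1, summed to 35831 to 39379 CPM in Il3-/-5xFAD and 35029 to 36821 CPM in 5xFAD. The gate also admits other leukocytes: 13 neutrophil genes summed to 911 to 1470 CPM in Il3-/-5xFAD and 1920 to 3990 CPM in 5xFAD, 9 monocyte genes to 81.4 to 173 CPM and 181 to 291 CPM, and 10 T and NK cell genes to 37.8 to 49.5 CPM and 76.4 to 145 CPM. In these bulk samples, fewer cells of a type and less RNA per cell cannot be told apart.

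No Rab gene passed the test between the genotypes. With limma on log2(CPM + 1), 0 of 43 had an adjusted p under 0.05, where 0.882% of all 11900 tested genes did (105 genes, 30 higher and 75 lower in Il3-/-5xFAD; edgeR's quasi-likelihood test with TMM scaling called 25 higher and 35 lower). At an unadjusted p under 0.05 the count was 5 Rab genes, all lower in Il3-/-5xFAD, or 11.6% of the 43 against 9.83% of all genes; none was higher, against 6.69% of all genes. By edgeR none of the 43 was called, where 0.504% of all genes were with TMM factors and 0.580% with library totals. DESeq2 called Rab3d and Rab37, both lower in Il3-/-5xFAD, where it called 5.09% of all genes. In 6 Rab genes, or 14.0%, every Il3-/-5xFAD library lay below every 5xFAD library, against 11.5% of all genes, and in none did every one lie above, against 9.65%. The shares of lower genes are therefore near those of the whole table.

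The differences were small for most of the family. Of the 43 log2 differences (Il3-/-5xFAD minus 5xFAD), 28 were negative and 15 positive, with a median of -0.07 against -0.000587 over all tested genes, and they ran from -1.26 (Rab44) to 0.15 (Rab39). For 36 genes the difference was under 0.25 in size, and for 34 the whole 95% interval of the log2 difference lay between -0.5 and 0.5. The intervals were wide where levels were low. The 30 genes that averaged 20 CPM or more had a median difference of -0.02 (0.02 over all genes of that level), and the 13 genes below it a median of -0.28 (-0.06 over all genes of that level). The summed level of the 43 genes was 3288, 3138 and 3335 CPM in Il3-/-5xFAD, against 3342, 3368 and 3403 CPM in 5xFAD, so every Il3-/-5xFAD library lay below every 5xFAD library. The means were 3254 ± 103 CPM and 3371 ± 30.7 CPM in Il3-/-5xFAD and 5xFAD (SD, n = 3 each).

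**Figure D1:**
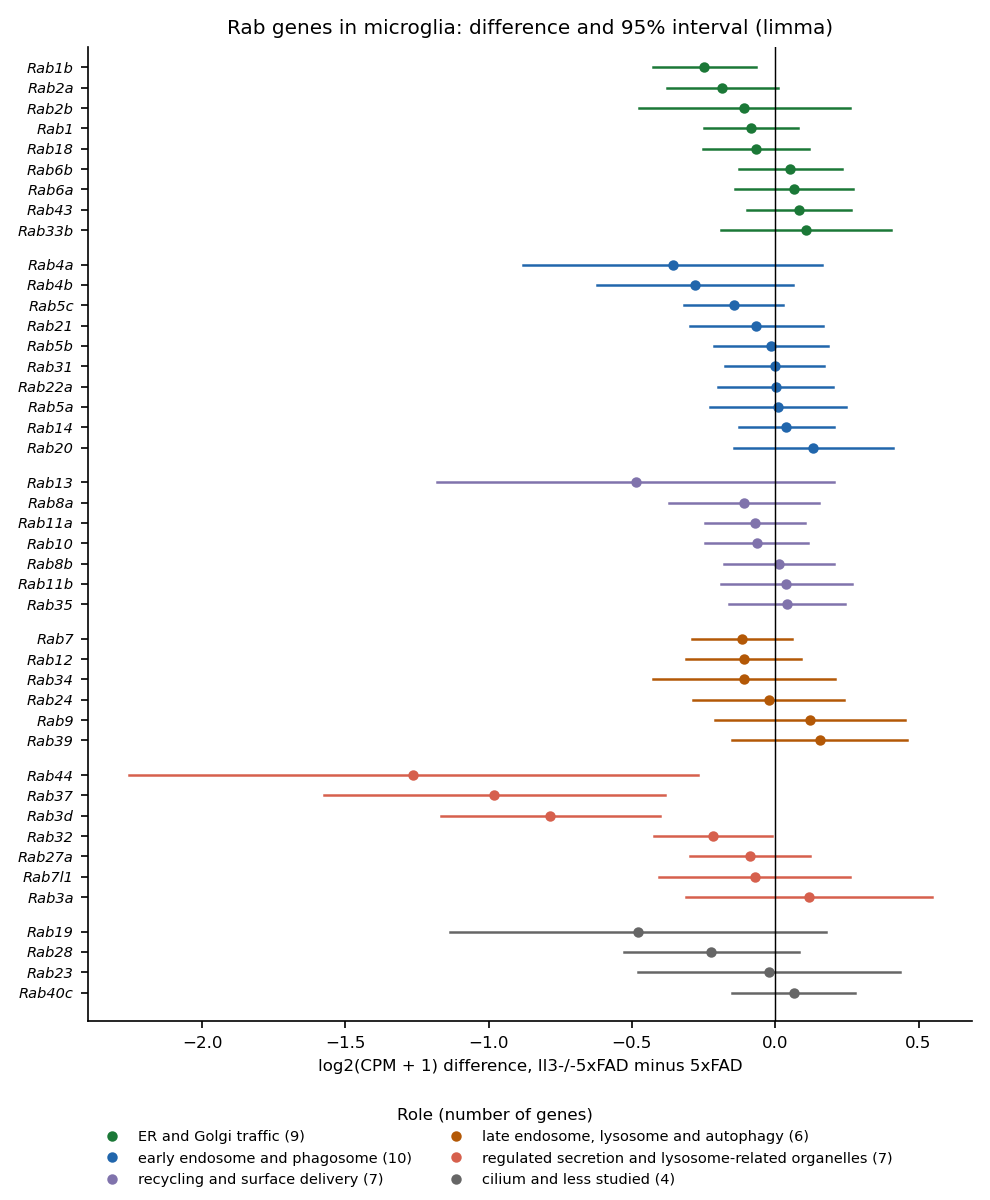
Difference of each of the 43 Rab genes between Il3-/-5xFAD and 5xFAD microglia on the log2(CPM + 1) scale (horizontal axis; point, limma estimate; line, 95% interval; 3 libraries per group), grouped and coloured by role. Rab3d, Rab37 and Rab44 of the regulated-secretion group lie farthest to the left, and 34 of the 43 intervals stay between -0.5 and 0.5.

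Rab7 and Rab5c had the highest levels of the family per kb of the longest transcript. Levels of different genes are compared here as CPM per kb of the longest annotated transcript. Rab7, which brings late endosomes to the lysosome, averaged 113 ± 8.07 CPM per kb in Il3-/-5xFAD and 122 ± 4.54 CPM per kb in 5xFAD (SD, n = 3 each). Rab5c, one of the Rab5 genes, which drive fusion of early endosomes, averaged 109 ± 6.03 and 121 ± 6.07 CPM per kb in Il3-/-5xFAD and 5xFAD. Rab1, the gene now named Rab1a, which carries cargo from the endoplasmic reticulum to the Golgi, followed at 74.5 ± 2.66 and 79.1 ± 3.13 CPM per kb, and Rab14, which works between endosomes and the Golgi, at 62.0 ± 3.03 and 60.3 ± 2.02 CPM per kb. The ranges of Rab7 and Rab5c over the 6 libraries overlapped, while Rab5c lay above Rab1, and Rab1 above Rab14, in every library. Further down the order, neighbours overlapped in nearly all cases: only 4 of the 42 neighbouring pairs were apart in all libraries. The lowest gene, Rab13, was at 0.452 ± 0.353 and 0.885 ± 0.252 CPM per kb, and the mean of Rab7 over all libraries was 176 times that of Rab13. The 4 highest genes made up 33.0% of the summed CPM per kb of the 43. These orders depend on the length taken: with the mean length of each gene's transcripts, 7 of the 10 highest genes were shared. Rab5c then came first (191 CPM per kb over all libraries), followed by Rab14 (184) and Rab7 (178), with Rab1 (119) below Rab14.

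**Figure D2:**
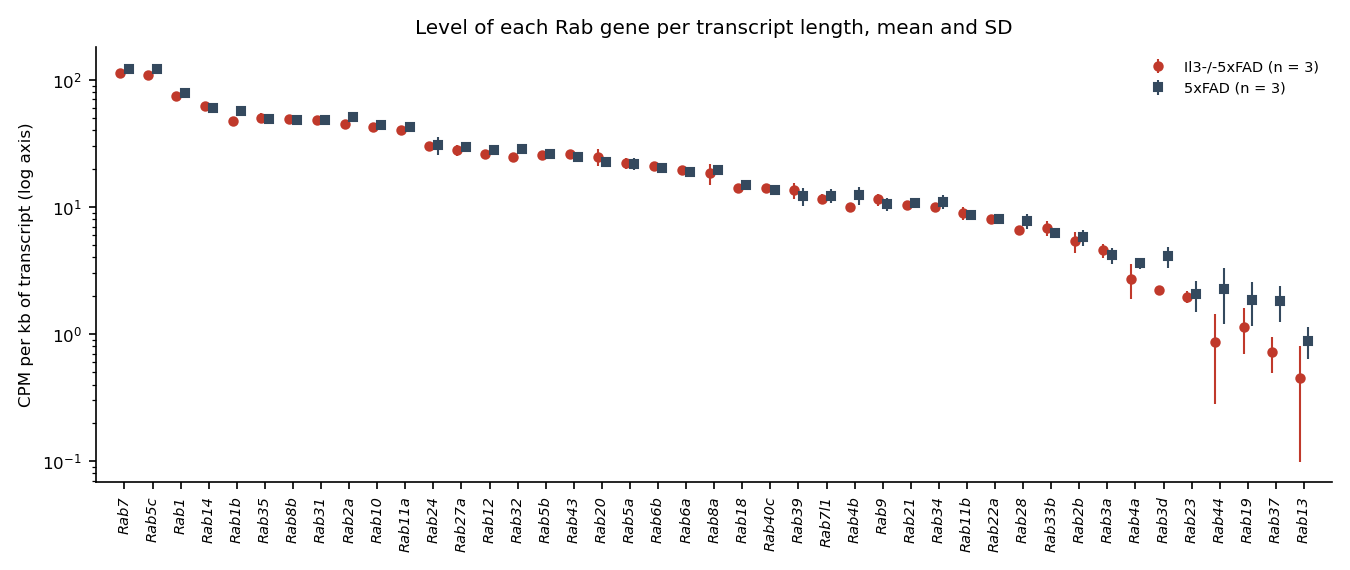
Level of each of the 43 Rab genes as CPM per kb of the longest transcript (vertical log axis), ordered by the mean over all libraries; circles are Il3-/-5xFAD and squares 5xFAD (mean, SD, n = 3 each). Rab7 and Rab5c are the highest at 109 to 122 CPM per kb, and the wider gaps between the genotypes are among the lowest genes on the right.

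Among the 9 Rabs of the endoplasmic reticulum and Golgi, 1 had an unadjusted limma p under 0.05 and was lower, where 9.83% of all tested genes did so. Rab1b, the close relative of Rab1 in early secretory traffic, was at 92.6, 87.0 and 94.2 CPM in Il3-/-5xFAD, against 113, 103 and 110 CPM in 5xFAD. Every Il3-/-5xFAD library was below every 5xFAD library, and the log2 difference was -0.25 ± 0.08 (SE; limma adjusted p = 0.155). Rab1 itself was at 211, 203 and 218 CPM in Il3-/-5xFAD, against 234, 220 and 217 CPM in 5xFAD, and the groups overlapped (log2 difference -0.09 ± 0.07, limma adjusted p = 0.621). Of the level per kb of this pair, Rab1b supplied 39.4%, 38.8% and 38.9% in Il3-/-5xFAD, against 41.7%, 40.8% and 42.8% in 5xFAD. Rab43, a Golgi Rab, was at 123, 113 and 123 CPM in Il3-/-5xFAD, against 118, 116 and 106 CPM in 5xFAD. Rab33b, which links the Golgi to the autophagosome factor Atg16l1, was at 24.0, 26.7 and 20.3 CPM in Il3-/-5xFAD, against 21.4, 23.1 and 20.9 CPM in 5xFAD. Both overlapped between the groups, with log2 differences of 0.08 ± 0.08 and 0.11 ± 0.14, which were 0.03 without 5xFAD replicate 6 (Rab43) and 0.02 when Il3-/-5xFAD replicate 2 was left out (Rab33b). The other 5 genes of this group (Rab2a, Rab2b, Rab6a, Rab6b and Rab18) had log2 differences from -0.18 (Rab2a) to 0.06 (Rab6a).

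The 10 Rabs of early endosomes and phagosomes had a median log2 difference of -0.01. Rab5c was at 210, 206 and 228 CPM in Il3-/-5xFAD, against 223, 244 and 243 CPM in 5xFAD, which overlapped (log2 difference -0.14 ± 0.08, limma adjusted p = 0.396). It supplied 68.2%, 70.9% and 69.7% of the Rab5 level per kb in Il3-/-5xFAD, against 71.9%, 72.5% and 70.5% in 5xFAD, with Rab5a and Rab5b making up the rest. Rab14 was at 328, 301 and 302 CPM in Il3-/-5xFAD, against 311, 302 and 291 CPM in 5xFAD (log2 difference 0.04 ± 0.08, 95% interval -0.13 to 0.20). Rab20, a phagosome Rab of macrophages, was at 31.7, 40.8 and 31.3 CPM in Il3-/-5xFAD, against 31.1, 29.6 and 33.1 CPM in 5xFAD. Il3-/-5xFAD replicate 2 stood above the others, which overlapped, and the log2 difference of 0.13 ± 0.13 was 0.01 without that library. Rab4b, of the fast recycling route from early endosomes, was lower in every Il3-/-5xFAD library (13.7, 13.6 and 13.8 CPM, against 18.7, 13.8 and 18.6 CPM in 5xFAD), by a margin that nearly closed at 5xFAD replicate 5 (limma adjusted p = 0.408). Rab4a, Rab5a, Rab5b, Rab21, Rab22a and Rab31 had log2 differences from -0.36 (Rab4a) to 0.01 (Rab5a), and those of Rab31 and Rab22a were -0.00 and 0.00 with standard errors of 0.08 and 0.09.

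The 7 Rabs of recycling endosomes and surface delivery had a median log2 difference of -0.06, and in none of them were the groups apart. Rab35, which recycles receptors from the plasma membrane and was the highest of this group per kb, was at 154, 130 and 140 CPM in Il3-/-5xFAD, against 149, 138 and 126 CPM in 5xFAD (log2 difference 0.04 ± 0.09, limma adjusted p = 0.874). Rab8a, Rab8b, Rab10, Rab11a and Rab11b had log2 differences from -0.11 (Rab8a) to 0.04 (Rab11b). Rab8b supplied 76.2%, 74.4% and 67.6% of the Rab8 level per kb in Il3-/-5xFAD, against 68.2%, 73.0% and 72.1% in 5xFAD, and Rab11a supplied 83.1%, 82.6% and 80.2% of the Rab11 level, against 83.2%, 82.6% and 83.4%. Rab13, a Rab of epithelial junctions with a log2 difference of -0.49 ± 0.32, was nearest to the expression limit of the genes tested, at 0.437, 1.21 and 0.273 CPM in Il3-/-5xFAD and 1.36, 0.854 and 1.54 CPM in 5xFAD. Just outside it was Rab36, with 1 CPM or more in 2 libraries, at 1.61, 0.462 and 0.273 CPM in Il3-/-5xFAD and 0.608, 0.683 and 1.41 CPM in 5xFAD.

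The 6 Rabs of late endosomes, lysosomes and autophagy gave no unadjusted p under 0.05. Rab7 was at 231, 236 and 263 CPM in Il3-/-5xFAD, against 252, 269 and 270 CPM in 5xFAD. Its groups overlapped through Il3-/-5xFAD replicate 3, and the log2 difference was -0.12 ± 0.08 (95% interval -0.29 to 0.06; limma adjusted p = 0.512). Rab39, a late endosomal Rab with a part in autophagy, was at 46.7, 37.6 and 35.8 CPM in Il3-/-5xFAD, against 40.5, 29.7 and 37.6 CPM in 5xFAD. Rab9, which returns mannose 6-phosphate receptors to the Golgi, was at 15.4, 15.8 and 18.7 CPM in Il3-/-5xFAD, against 13.7, 17.3 and 14.6 CPM in 5xFAD. These 2 had the highest positive differences of the group, 0.15 ± 0.14 and 0.12 ± 0.15, and the libraries of both genotypes were interleaved. With 1 library left out, that of Rab39 was 0.03 when this was 5xFAD replicate 5 and 0.04 when it was Il3-/-5xFAD replicate 1, and that of Rab9 was 0.04 when Il3-/-5xFAD replicate 3 was missing and 0.05 when 5xFAD replicate 4 was. Rab12 was lower in every Il3-/-5xFAD library (54.4, 53.2 and 54.1 CPM, against 62.5, 54.7 and 57.9 CPM in 5xFAD), at a log2 difference of -0.11 ± 0.09. Rab24 and Rab34 had log2 differences of -0.02 and -0.11.

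The lowest p-values of the family were in the 7 Rabs of regulated secretion and lysosome-related organelles, of which 4 had an unadjusted p under 0.05, all lower in Il3-/-5xFAD. Over all tested genes, 9.83% had an unadjusted limma p under 0.05 and were lower, and 566 of the 4973 that averaged under 20 CPM. Limma called none of the 7. The role lists were drawn up with earlier results of these data known, so this count is no independent evidence. Rab3d, a Rab of secretory granules, was at 8.76, 8.20 and 9.06 CPM in Il3-/-5xFAD, against 12.6, 18.4 and 16.5 CPM in 5xFAD. The 3 Il3-/-5xFAD libraries were nearly equal and all lay below the 5xFAD libraries, which spread more widely. The log2 difference was -0.78 ± 0.17 (95% interval -1.17 to -0.40), with an unadjusted limma p of 0.000766 and an adjusted p of 0.0584. Rab37, which acts in granule exocytosis of mast cells, was at 1.61, 1.46 and 2.55 CPM in Il3-/-5xFAD, against 3.15, 4.99 and 6.04 CPM in 5xFAD. These groups did not overlap either, and the log2 difference was -0.98 ± 0.27 (limma adjusted p = 0.0973). Rab44, a large Rab known from mast cell granules, was at 5.00, 0.781 and 4.79 CPM in Il3-/-5xFAD, against 4.40, 10.5 and 12.8 CPM in 5xFAD. Its groups overlapped at 5xFAD replicate 4, and the log2 difference of -1.26 ± 0.45 (limma adjusted p = 0.185) was -0.69 without Il3-/-5xFAD replicate 2, the library with the lowest level. Rab32, a Rab of lysosome-related organelles, was at 51.7, 51.2 and 55.0 CPM in Il3-/-5xFAD, against 66.5, 57.7 and 60.1 CPM in 5xFAD, without overlap (log2 difference -0.22 ± 0.09, limma adjusted p = 0.278).

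Whether Rab3d and Rab37 were called turned on single libraries. For Rab3d the limma adjusted p was 0.0282 with 5xFAD replicate 4 left out, 0.0412 with Il3-/-5xFAD replicate 3 left out, and between 0.103 and 0.30 when any other library was left out. For Rab37 it was 0.0462 without Il3-/-5xFAD replicate 3 and 0.0587 to 0.403 otherwise. DESeq2 gave adjusted p of 0.00234 and 0.0243 for Rab3d and Rab37, and edgeR with TMM factors 0.0715 and 0.138. The neutrophil marker genes moved in the same direction as these Rabs, at 1470, 911 and 1464 summed CPM in Il3-/-5xFAD, against 1920, 3990 and 2892 CPM in 5xFAD. In 12 of 13 tested genes all Il3-/-5xFAD libraries lay below all 5xFAD libraries, against 11.5% of all genes, and none was at 0 in any library. These sums include Csf3r, which averaged 674 CPM in Il3-/-5xFAD and 661 CPM in 5xFAD and overlapped. Also lower in Il3-/-5xFAD were the monocyte genes (173, 81.4 and 122 CPM, against 181, 291 and 283 CPM in 5xFAD, with 5 of 8 tested genes apart). The T and NK cell genes were lower too (49.5, 44.2 and 37.8 CPM, against 100, 76.4 and 145 CPM, with 6 of 10 apart). The 6 choroid plexus genes summed to 63.2 to 131 CPM in Il3-/-5xFAD and 183 to 516 CPM in 5xFAD, the 7 oligodendrocyte genes to 161 to 177 CPM and 193 to 209 CPM, and the 7 endothelial genes to 67.9 to 69.0 CPM and 69.3 to 89.1 CPM. Of the tested oligodendrocyte and endothelial genes, 4 of 5 and 3 of 5 had negative differences. The endothelial genes Pecam1 and Kdr averaged 41.5 and 13.8 CPM in Il3-/-5xFAD, against 35.4 and 12.3 CPM in 5xFAD. The astrocyte, neuron and B cell sums overlapped between the groups. Of their tested genes, 4 of 5, 2 of 2 and 1 of 2 had negative differences. Most of the astrocyte sum was Slc1a3, which averaged 126 CPM in Il3-/-5xFAD and 124 CPM in 5xFAD. In 3 astrocyte genes (Gfap, Slc1a2 and S100b) all Il3-/-5xFAD libraries lay below all 5xFAD libraries. Gfap averaged 8.08 CPM in Il3-/-5xFAD and 23.1 CPM in 5xFAD. All 7 border-associated macrophage genes had negative differences, with overlapping sums of 101 to 132 CPM in Il3-/-5xFAD and 126 to 161 CPM in 5xFAD. The part of these cells in the levels of Rab3d, Rab37, Rab44 and Rab32 was not tested.

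**Figure D3:**
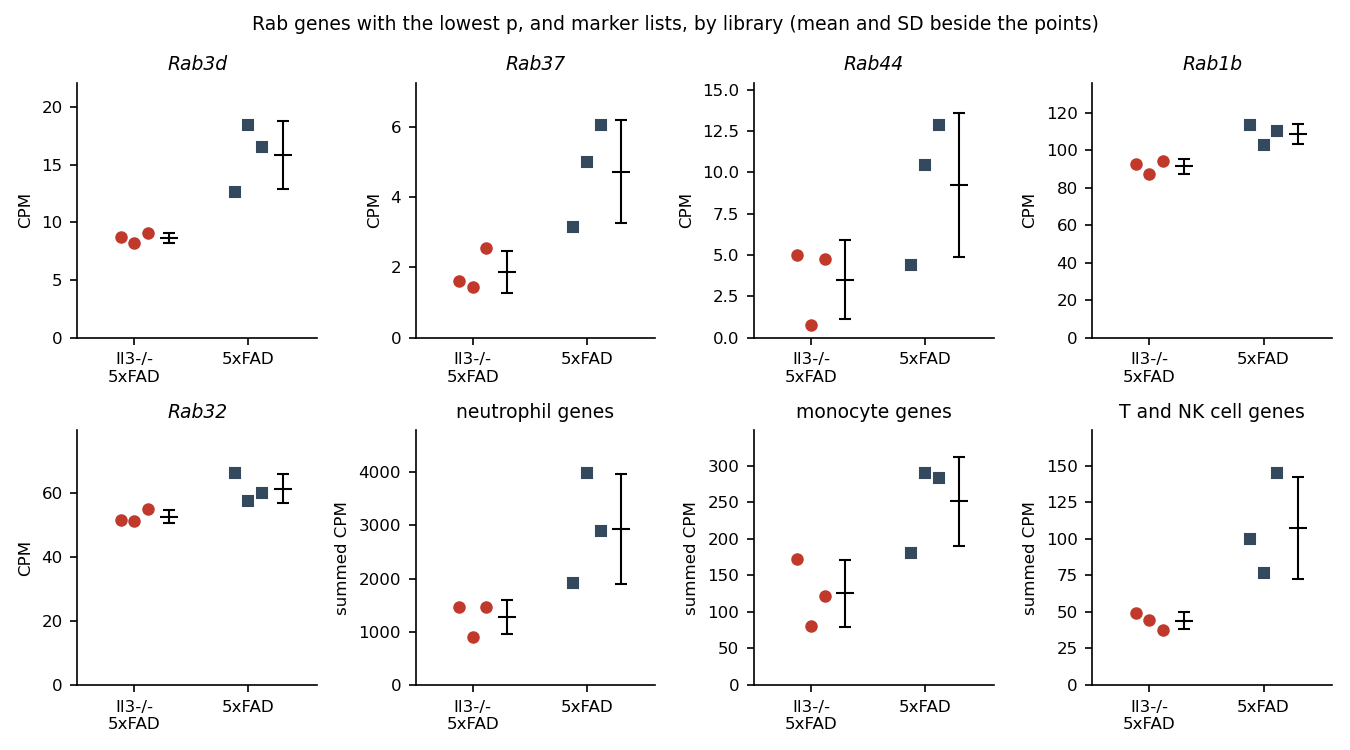
Levels by library (vertical axes, CPM or summed CPM, each from 0) of the 5 Rab genes with an unadjusted p under 0.05 and of the neutrophil, monocyte and T and NK cell marker lists; circles are Il3-/-5xFAD and squares 5xFAD, with the mean and SD beside them (n = 3 each). The Il3-/-5xFAD points are below all 5xFAD points in every panel but that of Rab44.

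The remaining 3 Rabs of this group lay closer to 0. Rab27a, which docks granules and multivesicular bodies at the plasma membrane and was the highest of the group per kb, was at 81.4, 86.8 and 98.2 CPM in Il3-/-5xFAD, against 88.8, 102 and 91.9 CPM in 5xFAD (log2 difference -0.09 ± 0.10, limma adjusted p = 0.700). Rab7l1, the gene now named Rab29, and Rab3a, the Rab of synaptic vesicles, had log2 differences of -0.07 ± 0.15 and 0.12 ± 0.20. Of the Rab3 level per kb, Rab3d supplied 34.2%, 28.7% and 35.4% in Il3-/-5xFAD, against 41.9%, 50.4% and 55.0% in 5xFAD, with Rab3b and Rab3c each at 2.45% or less in every library. That share carries no test of its own, and it rests on the same reads as the difference of Rab3d. The whole group, with members below the expression limit included, supplied 6.45%, 6.63% and 6.83% of the Rab level per kb in Il3-/-5xFAD, against 7.05%, 7.61% and 7.03% in 5xFAD.

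Of the 4 Rabs of cilia or less studied function, Rab40c, which carries a domain of ubiquitin ligases, was the highest per kb, at 42.4, 39.0 and 42.2 CPM in Il3-/-5xFAD, against 39.1, 39.1 and 39.7 CPM in 5xFAD (log2 difference 0.06 ± 0.10). Rab19, Rab23 and Rab28 had log2 differences of -0.48, -0.02 and -0.22, with standard errors of 0.30, 0.21 and 0.14. The groups overlapped in all 4 genes. A further 13 Rab genes lay below the expression limit and were not tested: Rab3b, Rab3c, Rab9b, Rab15, Rab25, Rab26, Rab27b, Rab30, Rab33a, Rab36, Rab38, Rab39b and Rab40b. Their highest value in any library was 1.61 CPM (Rab36), and Rab38, the melanosome partner of Rab32, had no read in 5 of 6 libraries.

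The expressed Rab genes had promoters rich in G and C. Of the 43 genes, 38 had a promoter in the RefSeq table of GRCm38.p6, a window of 300 bases that runs 250 bases before to 50 after the first listed start of the gene. Their median GC content was 63.3%, against 52.7% over the 27025 genes of that table, which include non-coding genes. That set is not limited to genes expressed here, and a comparison with expressed genes alone was not made. The GC box GGGCGG was found, on either strand, in 28 of 38 (73.7%) against 35.9% of all promoters, the CCAAT box in 19 of 38 against 37.9%, the E-box CACGTG in 5 (13.2%) against 7.24%, the ETS core AGGAAG in 15 (39.5%) against 35.1%, the cAMP response element TGACGTCA in 1 (2.63%) against 1.88%, and the TATA box TATAAA in 1 (2.63%) against 14.2%. These are matches of letters in a window and not sites, and no other motif was searched. The 3 promoters of the genes with the lowest p that are in the table, and that of Rab7, the highest gene per kb, are printed 5′ to 3′ on the strand of the gene, with matches to any of these motifs in capitals. Rab3d had 3 GC boxes, Rab1b had 2 GC boxes and a CCAAT box, Rab32 had 2 ETS cores and no GC box, and Rab7 had a GC box, a CCAAT box and the only TATA match among the 38. No motif of this set was in all 3 promoters of the genes with low p.
Rab3d promoter (GRCm38.p6 chr9:21918134-21918433, minus strand): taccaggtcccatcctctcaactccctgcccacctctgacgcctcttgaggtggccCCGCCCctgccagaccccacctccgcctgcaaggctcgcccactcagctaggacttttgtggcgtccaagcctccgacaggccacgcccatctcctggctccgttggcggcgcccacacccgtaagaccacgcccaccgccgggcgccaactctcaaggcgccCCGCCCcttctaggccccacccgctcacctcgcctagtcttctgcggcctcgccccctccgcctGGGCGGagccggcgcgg
Rab1b promoter (GRCm38.p6 chr19:5106947-5107246, minus strand): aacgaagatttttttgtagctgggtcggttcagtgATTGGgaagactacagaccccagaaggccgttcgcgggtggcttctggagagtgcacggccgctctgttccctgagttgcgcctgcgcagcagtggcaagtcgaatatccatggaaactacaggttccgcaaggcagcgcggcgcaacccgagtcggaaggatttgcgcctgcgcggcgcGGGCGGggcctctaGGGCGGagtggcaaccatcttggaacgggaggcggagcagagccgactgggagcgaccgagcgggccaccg
Rab32 promoter (GRCm38.p6 chr10:10558158-10558457, minus strand): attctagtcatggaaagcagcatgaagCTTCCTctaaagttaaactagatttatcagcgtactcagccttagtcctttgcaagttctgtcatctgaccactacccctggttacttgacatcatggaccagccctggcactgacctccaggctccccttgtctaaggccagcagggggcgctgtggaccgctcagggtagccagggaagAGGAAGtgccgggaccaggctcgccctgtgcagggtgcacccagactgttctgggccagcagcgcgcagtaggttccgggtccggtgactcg
Rab7 promoter (GRCm38.p6 chr6:88045221-88045520, minus strand): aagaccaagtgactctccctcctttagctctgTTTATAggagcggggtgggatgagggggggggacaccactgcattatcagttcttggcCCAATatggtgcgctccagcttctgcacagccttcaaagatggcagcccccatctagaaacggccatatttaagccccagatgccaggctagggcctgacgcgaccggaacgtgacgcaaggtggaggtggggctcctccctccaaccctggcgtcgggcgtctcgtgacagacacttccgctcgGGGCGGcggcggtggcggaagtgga

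The genes that load, unload and read the Rabs were taken from 5 lists, of which 144 genes passed the expression limit. By limma, 2 of these 144 rose in Il3-/-5xFAD and none fell, where 0.882% of all genes were called. DESeq2 called 4 higher and 2 lower, where it called 5.09% of all genes. The lists were drawn up with the difference of Dennd2c already known, so its call is no independent evidence. Both were higher in every Il3-/-5xFAD library. Dennd2c, a DENN-domain exchange factor, was at 46.8, 46.0 and 44.9 CPM in Il3-/-5xFAD, against 29.9, 24.7 and 24.1 CPM in 5xFAD (log2 difference 0.79 ± 0.11, limma adjusted p = 0.0129). Mical3, a monooxygenase that Rab8 recruits to exocytic vesicles, was at 26.4, 28.7 and 32.9 CPM in Il3-/-5xFAD, against 18.9, 17.2 and 16.5 CPM in 5xFAD (log2 difference 0.71 ± 0.13, limma adjusted p = 0.0352). Without 5xFAD replicate 6 neither was called (limma adjusted p of 0.118 and 0.224), and that of Mical3 was also lost when 5xFAD replicate 5 (0.134) or Il3-/-5xFAD replicate 2 (0.0890) was left out and after a correction for transcript length (0.0997). With no filter on low values the limma adjusted p of Dennd2c and Mical3 was 0.130 and 0.205, and without the mean-variance trend 0.0977 and 0.110.

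By list, the 37 exchange factors had a median log2 difference of 0.13, with 32 positive, against 5935 of 11900 over all genes, 1 called by limma and 11 (29.7%, against 9.65% of all genes) whose Il3-/-5xFAD libraries were all above those of 5xFAD. The 34 GTPase-activating proteins had a median of 0.07 and no call by limma, while DESeq2 called Tbc1d4 higher and Tbc1d10c lower. Tbc1d9, the most abundant of them in CPM, was at 265, 240.4 and 229 CPM in Il3-/-5xFAD, against 229.7, 213 and 245 CPM in 5xFAD. Tbc1d16, the next, was at 188, 174 and 201 CPM in Il3-/-5xFAD, against 177, 173 and 192 CPM in 5xFAD. Both overlapped, with log2 differences of 0.10 ± 0.09 and 0.06 ± 0.08. The 40 effectors, with the Rab kinase gene Lrrk2, had a median of -0.01 and 1 call by limma, Mical3, to which DESeq2 added Appl2 (higher) and Myo5a (lower). The 8 genes of prenylation and membrane extraction had a median of 0.03 and no call by either tool. The dissociation inhibitor gene Gdi2 was at 605, 606 and 676 CPM in Il3-/-5xFAD, against 658, 657 and 663 CPM in 5xFAD, and overlapped. The 25 genes of the HOPS, CORVET, retromer and exocyst tethering and sorting complexes had a median of 0.02 and no call by either tool. Snx5, a sorting nexin that works with retromer, was at 754, 769 and 764 CPM in Il3-/-5xFAD, against 837, 779.9 and 729 CPM in 5xFAD. Vps35, the retromer core, was at 184, 191 and 176 CPM in Il3-/-5xFAD, against 188, 179 and 172 CPM in 5xFAD. These 2, the most abundant of the list, overlapped between the groups, with log2 differences of -0.03 ± 0.08 and 0.03 ± 0.08. The median longest transcript of the exchange factors was 5.15 kb, against 2.90 kb for the Rabs and 3.39 kb for all genes. After the correction for length the median of the exchange factors was 0.07 and that of the Rabs -0.06.

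**Figure D4:**
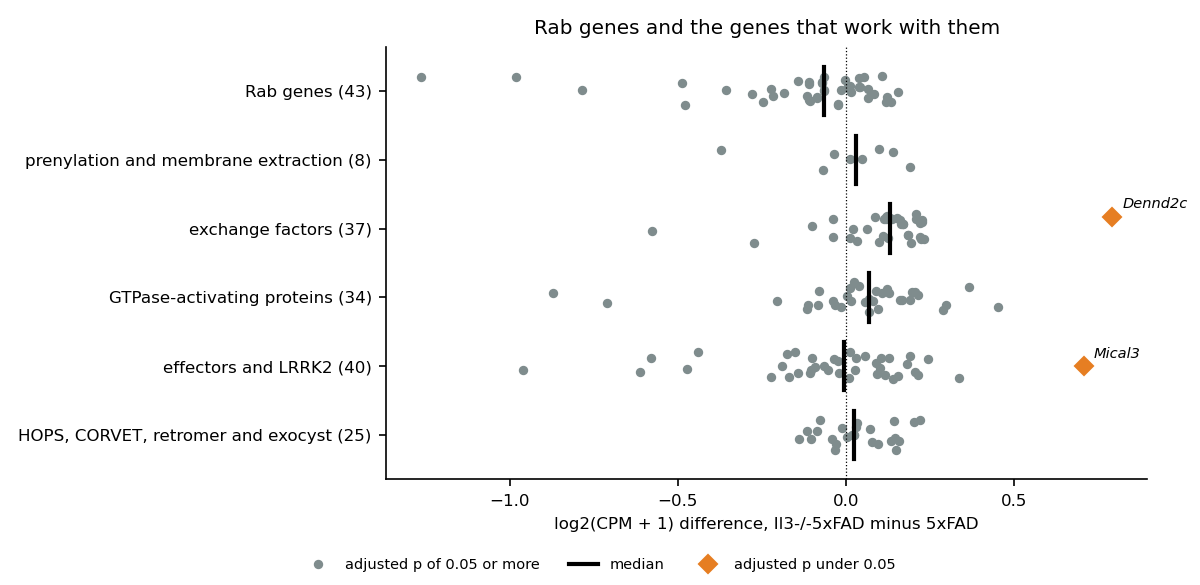
Log2(CPM + 1) differences between Il3-/-5xFAD and 5xFAD (horizontal axis) of the 43 Rab genes and of the genes of 5 lists that act with them (rows, number of tested genes in brackets; points spread vertically for sight); black bars are medians and diamonds are genes with a limma adjusted p under 0.05. Dennd2c and Mical3 are the called genes, and the median of the exchange factors is 0.13 against -0.07 for the Rabs.

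Where neighbouring genes overlap, some of these values can hold too many or too few reads. The library kit keeps strand, per the labels, but whether the counting used it is not given in the sources used here. In the GENCODE annotation of GRCm38, exons of 10 Rab genes overlap exons of another gene of the table, all on the opposite strand. The largest such overlap was of Rab24 with Prelid1 (62.4% of the exon bases of Rab24, Prelid1 at a mean of 58.1 CPM), followed by Rab20 with E230013L22Rik (25.6%) and Rab6a with Mrpl48 (19.0%). Rab43 and Rab4b share 75.4% and 65.0% of their exon bases with a gene model on the same strand. Of stretches of 50 bases in the transcripts of each Rab, a median of 0.965% also occurred in transcripts of other genes, on either strand. In 9 Rabs the share was over 10% (Rab43, Rab4b, Rab2b, Rab24, Rab20, Rab33b, Rab6a, Rab11b and Rab7), so the levels of these 9 are less certain. That share is not the size of an error in the level, since the assignment of reads was not examined. Rab3d, Rab37 and Rab44 shared none and had no exon overlap with another gene. Only 2 pairs of Rab genes shared any stretch. On chromosome 11, which carries Il3, lay Rab1, Rab34, Rab5c and Rab37, with 145, 277, 513 and 644 tested genes between them and Il3, and limma called none of these 4 with all libraries included.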

How the data were processed

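RNA of sorted microglia was measured in 6 libraries, 3 per genotype, each from pooled mice. Per the submitters' processing notes, STAR, HTSeq and edgeR were used with the mouse build mm9, and the authors deposited 1 table of CPM values for 20129 genes, normalized to library totals; the sources used here do not give versions or use of strand. Every CPM value was a whole multiple of 1 read within a tolerance of 0.01 reads (100%), so whole reads were recovered. Replicates are separate pools, so p-values measure the spread between pools.

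The 11900 genes (59.1%) at 1 CPM or more in 3 or more libraries were tested with limma 3.58.1 (R 4.3.3; two-sided, eBayes with trend) on log2(CPM + 1), a scale that understates changes of low genes, with Benjamini-Hochberg adjustment over all of them and a threshold of 0.05. As a count test, the quasi-likelihood test of edgeR 4.0.16 on those whole reads called 60 genes with TMM factors and 69 with library totals, and DESeq2 1.42.0 called 605. Alternatives also covered the pseudocount, the filter, scaling, the eBayes options, transcript length and leaving out each library.

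Values in every library are given for Rab genes with an adjusted p under 0.05, the 5 with the lowest p in each direction, the 4 highest per kb, and the highest per kb of each role; of each partner list, the called genes or else the 2 highest in CPM, of which 1 is not reported here. Rab12, Rab4b, Rab13 and Rab36 were named beyond that rule, for non-overlap or nearness to the expression limit. The members and lists were chosen with earlier results of these data known. Lengths, exon overlaps and shared stretches of 50 bases came from GENCODE M21, and promoters from RefSeq; neither build is mm9, so no mm9 coordinate is given.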

Additional observations from a re-analysis of the deposited data

How the results depend on the processing

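No Rab gene was called under any alternative but DESeq2 (2, Rab37 and Rab3d) and those that left out 1 library, which gave 0 to 2 calls: 2 without Il3-/-5xFAD replicate 3 and 1 without 5xFAD replicate 4. The median log2 difference over the Rab genes stayed negative throughout, from -0.09 to -0.03 when libraries were left out. Of the partner genes, 0 were called with no filter and 0 without the mean-variance trend, 6 by DESeq2 (4 higher and 2 lower) and 1 with the length correction, and 0 to 4 when a library was left out. Over all genes, in place of 105, calls numbered 8 with no filter, 68 with a mean of at least 5 CPM, 68 with median-ratio rescaling, 10 without the trend, 60 by edgeR with TMM factors, 69 by edgeR with library totals, 605 by DESeq2, 60 with the length correction, and 15 to 605 when a library was left out (15 without 5xFAD replicate 6, 605 without Il3-/-5xFAD replicate 3). The causes were not tested. Of 341 values of single genes under the alternatives, 323 kept their direction and side of the threshold, 5 passed it, 9 lost it and 4 changed sign, all of them uncalled and near 0. With 1 library left out, the log2 difference of Rab14 ran from -0.0013 (without Il3-/-5xFAD replicate 1) to 0.062, and that of Rab35 from -0.022 (without 5xFAD replicate 6; -0.021 without Il3-/-5xFAD replicate 1) to 0.10; with the length correction that of Rab14 was -0.014. With the mean transcript length, 7 of the 10 highest genes per kb were shared. No paired analysis was possible because the groups share no replicate number. With 3 pools per genotype, Rab genes at a few CPM had intervals wider than a 2-fold change: that of Rab44 ran from -2.26 to -0.27.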

Other observations

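Besides Dennd2c and Mical3, further partner genes missed the threshold by limma but passed it by DESeq2 or with 1 library left out. They were chosen here for that after their values were seen. DESeq2 called Tbc1d10c and Myo5a lower and Appl2 and Tbc1d4 higher in Il3-/-5xFAD. By limma, Myo5a was called without 5xFAD replicate 4 and Lrrk2 without Il3-/-5xFAD replicate 1. Without Il3-/-5xFAD replicate 3, limma called Rabac1 lower and Tbc1d23 higher. Tbc1d10c, a GTPase-activating protein gene of leukocytes, was at 6.21, 3.98 and 5.94 CPM in Il3-/-5xFAD, against 10.3, 8.48 and 13.2 CPM in 5xFAD, without overlap (limma adjusted p = 0.0807). Myo5a, the motor that Rab27a engages in melanocytes, was at 55.8, 61.0 and 50.2 CPM in Il3-/-5xFAD, against 59.5, 103 and 94.8 CPM in 5xFAD (limma adjusted p = 0.111). Lrrk2, a kinase of several Rabs, was at 10.7, 2.45 and 2.61 CPM in Il3-/-5xFAD, against 5.36, 10.8 and 13.4 CPM in 5xFAD, and overlapped through Il3-/-5xFAD replicate 1 (limma adjusted p = 0.294). The neutrophil markers were lower in Il3-/-5xFAD too, and the part of those cells in these 3 genes was not tested. Appl2, an endosomal Rab5 effector, was at 124, 115 and 110 CPM in Il3-/-5xFAD, against 100.1, 83.8 and 92.4 CPM in 5xFAD, and Tbc1d4, a GTPase-activating protein of glucose transporter traffic, at 29.6, 30.1 and 27.8 CPM, against 20.95, 23.5 and 19.0 CPM (limma adjusted p = 0.0934 and 0.0961). Both were higher in every Il3-/-5xFAD library. Rabac1, of the prenylation and membrane extraction list, was at 119, 114 and 166 CPM in Il3-/-5xFAD, against 180, 157 and 174.5 CPM in 5xFAD. Its groups overlapped (limma adjusted p = 0.161). Tbc1d23, of the list of GTPase-activating proteins, was at 65.8, 63.0 and 53.8 CPM in Il3-/-5xFAD, against 51.6, 47.0 and 50.1 CPM in 5xFAD. It was higher in every Il3-/-5xFAD library (limma adjusted p = 0.184).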
